A study of Homo sapiens with 10 samples.

Results

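The genes described here encode the initiation factors (eIF) and elongation factors (eEF) of cytosolic protein synthesis. They were chosen by name, as every listed gene whose symbol begins with EIF or EEF, apart from the eIF2α kinases (EIF2AK) and the eIF4E-binding proteins (EIF4EBP), and they number 63 of 20263 listed genes. By complex these are 6 EIF2, 5 EIF2B, 14 EIF3, 13 EIF4, 5 EIF5, 10 EEF1 and 3 EEF2 genes, and 7 others (EIF1, EIF1B, EIF1AX, EIF1AY, EIF1AD, EIF6 and EEFSEC). RNA was sequenced from PANC-1, an established human pancreatic carcinoma line. One group of 5 libraries (LY-1 to LY-5) came from cells given LY at 20 µM for 24 h. The other group of 5 (NC-1 to NC-5) came from cells given DMSO, also for 24 h. LY is lycorine, as the title of the series has it, an alkaloid known to inhibit protein synthesis at the ribosome. The labels do not say if separate cultures stand behind the libraries, so p-values measure only the spread between these samples, which may be technical.

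Initiation begins when eIF2, loaded with GTP by its exchange factor eIF2B, brings the initiator tRNA to the small ribosomal subunit. This subunit also binds eIF3, eIF1, eIF1A and eIF5. The cap-binding complex eIF4F (eIF4E, the scaffold eIF4G and the helicase eIF4A) recruits the mRNA, and after scanning, eIF5 and eIF5B trigger GTP hydrolysis and subunit joining. Elongation then needs eEF1A, which delivers aminoacyl-tRNA, its exchange factor eEF1B, and eEF2, which moves the ribosome along. Many mRNAs of the elongation machinery are known to start with a terminal oligopyrimidine (TOP) tract, a C followed by a run of pyrimidines at the cap, through which mTORC1 and LARP1 control their translation and stability.

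Values are TPM as deposited, which are scaled for transcript length and library total, so that levels of different genes can be compared within a library. A change is an adjusted p under 0.05 in a limma fit across all 11663 genes with at least 1 TPM in at least 5 libraries, and a log2 fold change compares LY with DMSO on the log2(TPM + 1) scale, ± SE, which understates changes of low genes. The depth of the libraries is unknown. Mitochondrially encoded genes took 6.43% to 14.9% of TPM in LY and 12.2% to 37.5% in DMSO (37.5% in NC-2, the highest). Over all tested genes the median log2 fold change was 0.17. In such bulk values fewer cells of a type and less RNA per cell cannot be told apart. The epithelial keratins KRT8 and KRT18 were at 663.6 TPM or more in every library, whereas KRT19 was lower in LY (15.8 to 24.6 TPM) than in DMSO (123 to 166 TPM), EPCAM held 0.351 to 1.76 TPM over both groups, and KRT7 was near 0 in both. Acinar and endocrine markers were listed at 0 in every library, and of the leukocyte list CD68, a lysosomal protein also made outside leukocytes, was alone above 0.1 TPM (131 to 232 TPM in LY, 34.5 to 47.3 TPM in DMSO). Of the endothelial markers PECAM1 was at 0 and CDH5 held 2.68 to 3.22 TPM in LY and 0.0988 to 0.535 TPM in DMSO. The fibroblast markers DCN and LUM were at 0, PDGFRB was below 0.1 TPM, and the collagen genes COL1A1 and COL1A2, which carcinoma lines can also express, were lower in LY (COL1A2 27.1 to 37.1 TPM against 66.2 to 111 TPM).

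Most initiation factor genes were higher in LY, whereas no subunit gene of the elongation factors passed the test in TPM as deposited. EEF1B2 was called lower under the 5 other scalings described below. EEF1G and EEF1D were called lower with median-ratio scaling of the libraries other than NC-2. Of the 63 members 58 were tested. Of these, 38 rose, 3 fell and 17 did not pass, against 39.8% of all tested genes that rose, 24.9% that fell and 64.6% that changed in either direction. Among the 45 tested EIF genes 34 rose, 2 fell and 9 did not pass, with a median log2 fold change of 0.70, and among the 13 tested EEF genes 4 rose, 1 fell and 8 did not pass (median 0.031). The groups were without overlap in 34 members with LY higher and 2 with LY lower, where 32.7% and 16.7% of all tested genes did so. At least a 2-fold rise was measured in 9 members, against 12.4% of all tested genes. Of the 5 untested members, EIF1AY and EEF1E1-BLOC1S5 were listed at 0 in every library, EIF4E1B and EIF4E3 were below 0.1 TPM, and EIF2S3B measured 0.337 to 2.93 TPM over both groups.

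**Figure D1:**
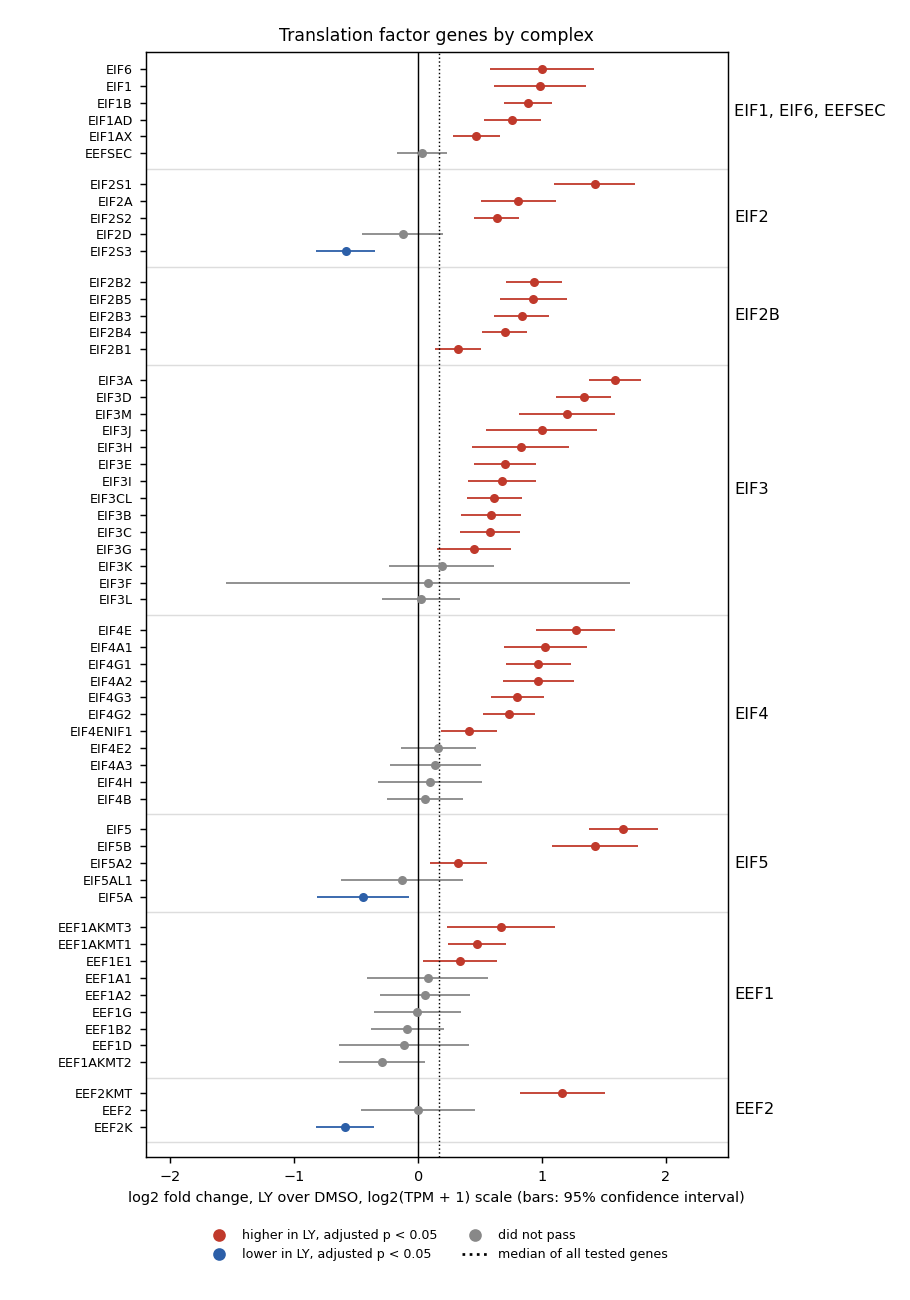
Log2 fold change of LY over DMSO (x axis) for each of the 58 tested factor genes (rows, grouped by complex), with bars for the 95% confidence interval of the limma fit and a dotted line at the median of all tested genes (0.17). EIF5 is farthest to the right at 1.65, EEF2K farthest to the left at -0.59, and the 6 elongation factor subunits lie around 0.

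Together the 63 genes held 3.16 ± 0.326% of all TPM in LY (range 2.78% to 3.58%) and 2.59 ± 0.356% in DMSO (range 1.96% to 2.87%, lowest in NC-2). As a share of TPM outside the mitochondrial genes, these were 3.27% to 3.82% in LY and 3.10% to 3.32% in DMSO. The 6 elongation factor subunits (EEF1A1, EEF1A2, EEF1B2, EEF1D, EEF1G and EEF2) made up 48.3% to 56.1% of this pool in LY and 59.9% to 67.03% in DMSO, so the 2 groups were apart in how the pool divided between elongation and the rest. These shares are sums over members and were not tested.

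Start-site sequences are shown because the TOP tract is the sequence feature by which the elongation factors are known, and because members that rose and members that did not pass both carry it. In the RefSeq-derived table of GRCh38.p14, 46 of the 58 tested members had a window around an annotated start. A TOP-like start was counted where, within 5 bases of that start and on the strand of the gene, a C was followed by at least 4 pyrimidines. It was found in 21 of the 46 members, in 11 of 29 that rose, in 8 of 14 that did not pass and in 2 of 3 that fell, against 29.4% of all tested genes with a window and 21.1% of all windows. Each run below holds 30 bases, 10 before the annotated start and 20 from it, 5′ to 3′, with the pyrimidine run in capitals. The first 5 did not pass, EIF2S3 fell, and EIF3D, EIF3M, EIF4A2 and EIF2A rose.
EEF1A1, chr6:73521013-73521042, minus strand: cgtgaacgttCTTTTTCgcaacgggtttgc
EEF2, chr19:3985444-3985473, minus strand: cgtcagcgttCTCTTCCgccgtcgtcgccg
EEF1B2, chr2:206159885-206159914, plus strand: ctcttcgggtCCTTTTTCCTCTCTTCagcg
EIF4B, chr12:53006446-53006475, plus strand: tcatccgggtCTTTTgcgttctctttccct
EIF3K, chr19:38619178-38619207, plus strand: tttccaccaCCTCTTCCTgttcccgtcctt
EIF2S3, chrX:24054946-24054975, plus strand: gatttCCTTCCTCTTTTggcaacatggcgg
EIF3D, chr22:36529147-36529176, minus strand: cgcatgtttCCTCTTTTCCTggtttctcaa
EIF3M, chr11:32583821-32583850, plus strand: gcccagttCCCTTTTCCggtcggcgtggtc
EIF4A2, chr3:186783567-186783596, plus strand: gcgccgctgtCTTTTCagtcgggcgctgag
EIF2A, chr3:150546777-150546806, plus strand: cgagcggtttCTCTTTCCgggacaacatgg
The windows of EIF5 and EIF2S1, which had 2 of the larger rises, are given next. At the starts shown no such run was found, whereas another annotated start of EIF5 had a run of 5 bases and counts among the 21.
EIF5, chr14:103334227-103334256, plus strand: ggcgttgttcagtcagagcgagaacattcc
EIF2S1, chr14:67360318-67360347, plus strand: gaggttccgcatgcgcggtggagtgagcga
Of the 9 members known for TOP mRNAs from textbook knowledge (EEF1A1, EEF1B2, EEF1D, EEF1G, EEF2, EIF3E, EIF3F, EIF3H and EIF4B), 2 rose (EIF3E and EIF3H), none fell and 7 did not pass (median 0.052). Of these 9, EEF1A1, EEF1B2, EEF2, EIF3F and EIF4B had a TOP-like start, and the window of EEF1G held no such run. EEF1D, EIF3E and EIF3H had no window, so their starts, including those of the 2 that rose, could not be searched. Among the other 49, 36 rose, 3 fell and 10 were not called (median 0.67). Of all tested genes 39.8% rose and 24.9% fell (median 0.17). The list of 9 is not independent evidence, since it was set with earlier results of these data known. A match to the letters describes the annotated start, which need not be the start used in these cells.

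The E-box CACGTG, the binding motif of MYC and other basic helix-loop-helix factors, reads the same on both strands and was searched in the 250 bases before each start. It was present in 12 of 46 members, against 11.5% of all tested genes with a window, and the 12 comprised 5 of 29 members that rose, 6 of 14 that did not pass and 1 of 3 that fell. EIF4E, EIF4G1 and EIF5A2, which rose, held 2 matches each in a single window, and the other 9 members held 1. None of the 4 elongation factor subunits with a window held one. Stretches of 100 bases around the match are shown for 2 members that rose, EIF2B3 and EIF1B, and for 2 that did not pass, EIF4A3 and EIF4H, with the E-box in capitals.
EIF2B3, chr1:44986722-44986821, minus strand: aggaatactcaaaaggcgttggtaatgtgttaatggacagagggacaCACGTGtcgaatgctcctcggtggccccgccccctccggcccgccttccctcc
EIF1B, chr3:40309606-40309705, plus strand: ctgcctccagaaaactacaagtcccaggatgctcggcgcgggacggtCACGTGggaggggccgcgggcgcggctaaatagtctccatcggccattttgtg
EIF4A3, chr17:80147197-80147296, minus strand: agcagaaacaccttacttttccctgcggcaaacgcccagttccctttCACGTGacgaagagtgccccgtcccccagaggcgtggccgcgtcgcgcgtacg
EIF4H, chr7:74174110-74174209, plus strand: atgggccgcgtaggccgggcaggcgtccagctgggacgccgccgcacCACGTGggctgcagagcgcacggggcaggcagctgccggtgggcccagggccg
The ETS-type motif CCGGAAG, searched on both strands, occurred in 10 of 46 members and in 20.1% of all tested genes. It stood in 6 of 29 members that rose and 3 of 14 that did not pass.

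EIF2 genes moved in opposite directions, with 3 of 5 tested members higher and 1 lower (39.8% and 24.9% of all tested genes). EIF2S1 (ENSG00000134001, chromosome 14, 67359997 to 67386516 on hg38), the α subunit that is phosphorylated in the integrated stress response, measured 135, 137, 212, 208 and 163 TPM in LY-1 to LY-5 and 63.4, 50.3, 66.3, 62.6 and 68.9 TPM in NC-1 to NC-5. Every LY library was above every DMSO library (log2 fold change 1.42 ± 0.15, adjusted p = 5.42e-06). EIF2S2, the β subunit, went from 170.1 to 265 TPM (0.63 ± 0.085), also without overlap. EIF2S3 (ENSG00000130741, chromosome X, 24054716 to 24077971), the γ subunit that binds GTP and the initiator tRNA, was lower in LY. EIF2S3 stood at 184, 177, 228, 214 and 201 TPM in LY-1 to LY-5 and 319.7, 247, 311, 309 and 326 TPM in NC-1 to NC-5. All 5 LY libraries lay below the lowest control, NC-2, and the difference passed the test (log2 fold change -0.59 ± 0.11, adjusted p = 0.000511).

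The 3 subunits form one complex, and their transcript levels lay closer together in LY. In DMSO the ratio of the highest to the lowest subunit within a library was 4.68 to 5.04, with EIF2S3 highest and EIF2S1 lowest in all 5 libraries. In LY it was 1.30 to 2.01, with EIF2S2 highest. This ratio was computed after the values were seen, does not depend on scaling between libraries, and was not tested. It was also computed for other complexes, where the ranges of LY and DMSO overlapped. Its mean was 3.60 in DMSO and 3.52 in LY for eIF2B, and 9.69 and 10.4 for eEF1B. For eIF3 A to M it was 8.43 in DMSO and 11.7 in LY (5.82 and 4.67 without EIF3F), and for eIF4F 30.3 and 24.7. EIF2A, a factor named for eIF2 but not a subunit of it, held 123, 100.5, 107, 112 and 92.3 TPM in LY-1 to LY-5 and 54.4, 86.1, 53.03, 57.2 and 56.6 TPM in NC-1 to NC-5. NC-2 was high among the controls and still below every LY library (log2 fold change 0.81 ± 0.14, adjusted p = 0.000285). EIF2D, which can place tRNA on the ribosome without GTP, did not pass (-0.13 ± 0.15), and with quantile or upper-quartile scaling, without mitochondrial genes, or with median-ratio scaling of the libraries other than NC-2, it was called lower.

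All 5 subunit genes of eIF2B, the exchange factor that recharges eIF2, rose, each without overlap between groups (median log2 change 0.83). Of all tested genes 39.8% rose and 32.7% were higher in LY without overlap. EIF2B5, which carries the catalytic ε subunit and was the most abundant, measured 138, 138, 154, 145 and 139 TPM in LY-1 to LY-5 and 81.5, 53.3, 84.3, 77.7 and 80.7 TPM in NC-1 to NC-5. LY values were tightly grouped, and NC-2 was the low control (log2 fold change 0.93 ± 0.12, adjusted p = 3.94e-05). EIF2B2, the β subunit, had 48.03, 41.2, 44.8, 34.9 and 36.7 TPM in LY-1 to LY-5 and 20.4, 19.6, 20.3, 22.4 and 22.1 TPM in NC-1 to NC-5. This was the lowest of the 5 genes in every library of both groups, and it had the largest rise of the 5 (log2 fold change 0.93 ± 0.10, adjusted p = 9.29e-06). EIF2B3 (0.83 ± 0.10) and EIF2B4 (0.70 ± 0.083), the γ and δ subunits, rose too. EIF2B1, the α subunit, had the smallest rise (0.32 ± 0.085), and its call was lost with median-ratio (0.18), quantile and upper-quartile scaling and without mitochondrial genes. The summed level of the 5 genes was 394 to 439.8 TPM in LY and 204 to 259 TPM in DMSO.

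**Figure D2:**
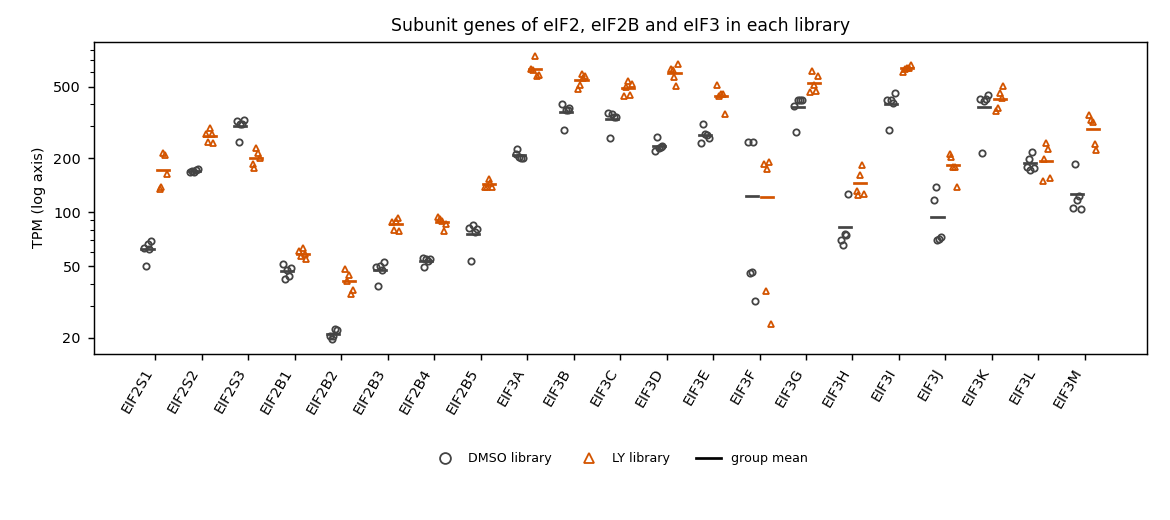
TPM on a log axis for the subunit genes of eIF2, eIF2B and eIF3 in each of the 5 DMSO (circles) and 5 LY (triangles) libraries, with a bar at each group mean. EIF2S1 and EIF2S2 are higher and EIF2S3 lower in LY, EIF3A is separated most among the EIF3 genes, and EIF3F splits into high and low libraries within both groups.

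eIF3 is the largest initiation factor, with subunits A to M on the small ribosomal subunit. Of the 14 tested EIF3 genes 11 rose, none fell and 3 did not pass (median 0.65). Of all tested genes 39.8% rose and 24.9% fell. EIF3A (ENSG00000107581, chromosome 10, 119033670 to 119080823), the scaffold subunit, measured 629, 615, 741, 572 and 581 TPM in LY-1 to LY-5 and 211, 224, 204, 201 and 199 TPM in NC-1 to NC-5. The lowest LY library was well above the highest control (log2 fold change 1.59 ± 0.096, adjusted p = 8.38e-08). EIF3D, which can bind the cap of some mRNAs, had 623, 617, 562, 503 and 669.9 TPM in LY-1 to LY-5 and 220.2, 263, 227, 229 and 232 TPM in NC-1 to NC-5. No DMSO value came near those of LY (log2 fold change 1.34 ± 0.10, adjusted p = 4.27e-07). EIF3I, a propeller-shaped subunit and the most abundant EIF3 gene, stood at 603, 629.9, 633, 631 and 656 TPM in LY-1 to LY-5 and 420.1, 286, 421, 407 and 460.3 TPM in NC-1 to NC-5. The LY libraries varied little, and NC-2 was the low control (log2 fold change 0.68 ± 0.13, adjusted p = 0.000505).

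Of the 8 subunits that form the structural core of eIF3 (A, C, E, F, H, K, L and M), 5 rose and 3 did not pass. The share that rose among all tested genes was 39.8%. EIF3M went from 127 to 291 TPM (1.20 ± 0.18), EIF3E from 270.3 to 442 TPM (0.70 ± 0.11) and EIF3H from 82.6 to 145 TPM (0.83 ± 0.18). EIF3H overlapped between groups through 1 control, NC-5 at 126 TPM, whereas the other controls held 65.96 to 76.0 TPM. EIF3C (0.58 ± 0.11) and EIF3CL (0.61 ± 0.10) are near-identical copies on chromosome 16 between which reads can be split, so their separate values are uncertain. EIF3K (log2 fold change 0.19 ± 0.19, adjusted p = 0.404, 95% interval -0.23 to 0.62) and EIF3L (log2 fold change 0.023 ± 0.15, adjusted p = 0.9, 95% interval -0.29 to 0.34), which sit together at one end of the core, did not pass. All 3 genes of the B, G and I module rose, EIF3B by 0.59 ± 0.11 and EIF3G by 0.45 ± 0.14, the latter not called with quantile or upper-quartile scaling. EIF3J, a loosely bound subunit, rose from 93.7 to 182 TPM (0.9955 ± 0.20), with NC-1 at 116 and NC-2 at 138 TPM above the other controls (70.3 to 72.4 TPM) and NC-2 overlapping LY.

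EIF3F (ENSG00000175390, chromosome 11, 7970251 to 8001862) differed more within the groups than between them. It measured 185, 36.4, 175, 189.7 and 23.9 TPM in LY-1 to LY-5 and 244, 45.7, 46.5, 245 and 32.2 TPM in NC-1 to NC-5. LY-1, LY-3, LY-4, NC-1 and NC-4 were at 174.7 TPM or more, and the other 5 libraries at 46.5 TPM or less, so both groups held high and low libraries. The interval of the difference was correspondingly wide (log2 fold change 0.076 ± 0.75, adjusted p = 0.937, 95% interval -1.55 to 1.71). Of all 11663 tested genes EIF3F alone was more than 2-fold higher in each of those 5 libraries than in any of the other 5. Without the 2-fold requirement, the count of tested genes split the same way without overlap was 17. The split was described after it was seen, and its cause was not tested.

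Among EIF4 genes, those of the cap-binding complex rose, and those of the helicase stimulators EIF4B and EIF4H did not pass. Of 11 tested EIF4 genes 7 rose, 4 did not pass and none fell (median log2 fold change 0.73). Among all tested genes 39.8% rose and 24.9% fell. EIF4E (ENSG00000151247, chromosome 4, 98871684 to 98930637), which binds the cap, measured 69.4, 76.3, 74.6, 51.8 and 47.2 TPM in LY-1 to LY-5 and 26.6, 27.9, 23.7, 27.1 and 22.1 TPM in NC-1 to NC-5. The groups were far apart, although LY-4 and LY-5 were lower than the other 3 LY libraries (log2 fold change 1.27 ± 0.14, adjusted p = 1.09e-05). EIF4G1, the scaffold and the most abundant EIF4 gene, held 1502, 1599.5, 1673, 1171 and 1628 TPM in LY-1 to LY-5 and 846, 810.4, 751, 729.6 and 706 TPM in NC-1 to NC-5. LY-4 was the lowest of the treated libraries and still above all controls (log2 fold change 0.97 ± 0.12, adjusted p = 2.21e-05). EIF4A1, the helicase, was at 989.6, 1249.9, 1478, 1248 and 1254 TPM in LY-1 to LY-5 and 629, 454, 549, 728 and 714 TPM in NC-1 to NC-5. It overlaps the SENP3-EIF4A1 readthrough gene, and the separation of the groups was complete (log2 fold change 1.03 ± 0.15, adjusted p = 9.47e-05). EIF4A2, its close paralog, had 552, 457, 646, 584 and 508 TPM in LY-1 to LY-5 and 253, 225, 288, 318 and 321 TPM in NC-1 to NC-5. The rise was of a size like that of EIF4A1 (log2 fold change 0.97 ± 0.13, adjusted p = 4.33e-05).

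EIF4G2, a scaffold that lacks the eIF4E site, rose from 463 to 772 TPM (0.73 ± 0.096), and EIF4G3 from 57.5 to 101 TPM (0.80 ± 0.099). EIF4ENIF1, which carries eIF4E into the nucleus, rose slightly (0.41 ± 0.10), a call lost with median-ratio, quantile and upper-quartile scaling and without mitochondrial genes. EIF4B, a stimulator of the helicase, measured 180.2 ± 22.4 TPM in LY and 175 ± 30.2 TPM in DMSO (log2 fold change 0.052 ± 0.14, adjusted p = 0.759, 95% interval -0.25 to 0.36), and with quantile normalization was called lower (-0.23). EIF4H, another stimulator, was at 715 ± 114 TPM in LY and 681 ± 160.0 TPM in DMSO (log2 fold change 0.096 ± 0.19, adjusted p = 0.677, 95% interval -0.32 to 0.52). EIF4A3, the helicase of the exon junction complex, and EIF4E2, a cap-binding paralog that represses translation, did not pass either (0.14 ± 0.17 and 0.16 ± 0.14). NC-2 was the lowest library of EIF4H, EIF4B, EIF4A3 and EIF4E2, and without it these 4 genes still did not pass.

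The genes of eIF1 and eIF1A, which act in scanning, rose. EIF1, which guards start codon selection, measured 644, 722, 613, 683 and 726 TPM in LY-1 to LY-5 and 343, 216, 343, 423 and 433 TPM in NC-1 to NC-5. The treated libraries were all above the controls, of which NC-2 was lowest (log2 fold change 0.98 ± 0.17, adjusted p = 0.00032). EIF1B, a paralog of EIF1, went from 34.2 to 64.2 TPM (0.88 ± 0.088), and EIF1AX, the X-linked gene of eIF1A, from 114 to 159 TPM (0.47 ± 0.086). EIF1AD, a related protein with an eIF1A-like domain, rose from 29.6 to 50.9 TPM (0.76 ± 0.11). EIF6, which keeps the large ribosomal subunit from joining too early and takes part in its assembly, held 332, 308, 402, 426 and 458 TPM in LY-1 to LY-5 and 209, 115, 205, 211 and 238 TPM in NC-1 to NC-5. NC-2 was again the low control, and the groups did not overlap (log2 fold change 0.9999 ± 0.19, adjusted p = 0.000618). EEFSEC, the elongation factor for selenocysteine, did not pass (0.031 ± 0.092, 95% interval -0.17 to 0.23), and with quantile or upper-quartile scaling it was called lower.

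Under the shared EIF5 prefix stand proteins of different function. EIF5 (ENSG00000100664, chromosome 14, 103333544 to 103345025), which activates GTP hydrolysis by eIF2, had the largest log2 fold change of the 58 tested members. It measured 410.1, 267, 307, 297 and 255 TPM in LY-1 to LY-5 and 88.7, 105, 90.98, 93.6 and 101 TPM in NC-1 to NC-5. LY-1 was highest and the controls lay close together (log2 fold change 1.65 ± 0.13, adjusted p = 4.46e-07). EIF5B (ENSG00000158417, chromosome 2, 99337353 to 99401326), the GTPase of subunit joining, had 289, 253, 279, 233 and 216 TPM in LY-1 to LY-5 and 88.5, 142, 85.3, 81.5 and 80.8 TPM in NC-1 to NC-5. NC-2 stood above the other controls but below all LY libraries (log2 fold change 1.43 ± 0.16, adjusted p = 8.61e-06). EIF5A, a factor that helps elongation and termination and carries the modified lysine hypusine, was lower in LY. EIF5A had 442, 455, 521, 589.5 and 546 TPM in LY-1 to LY-5 and 759.8, 444, 719, 766 and 852 TPM in NC-1 to NC-5. The groups overlapped through NC-2, and 4 of 5 controls were above every LY library (log2 fold change -0.45 ± 0.17, adjusted p = 0.0356). Without NC-2 the log2 fold change of EIF5A was -0.61 (limma adjusted p = 0.000245). Leaving out any one of 7 other libraries (LY-1, LY-2, LY-3, NC-1, NC-3, NC-4 or NC-5) ended the call, with adjusted p = 0.0565 to 0.0883, as did dropping the filter on low genes (adjusted p = 0.0507). EIF5A2, its paralog, rose slightly (0.32 ± 0.11), a call lost with median-ratio and upper-quartile scaling, without mitochondrial genes, and without NC-3 (0.27, adjusted p = 0.05003). EIF5AL1, an intronless copy nearly identical to EIF5A whose reads cannot be told apart with confidence, did not pass (-0.13 ± 0.22).

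**Figure D3:**
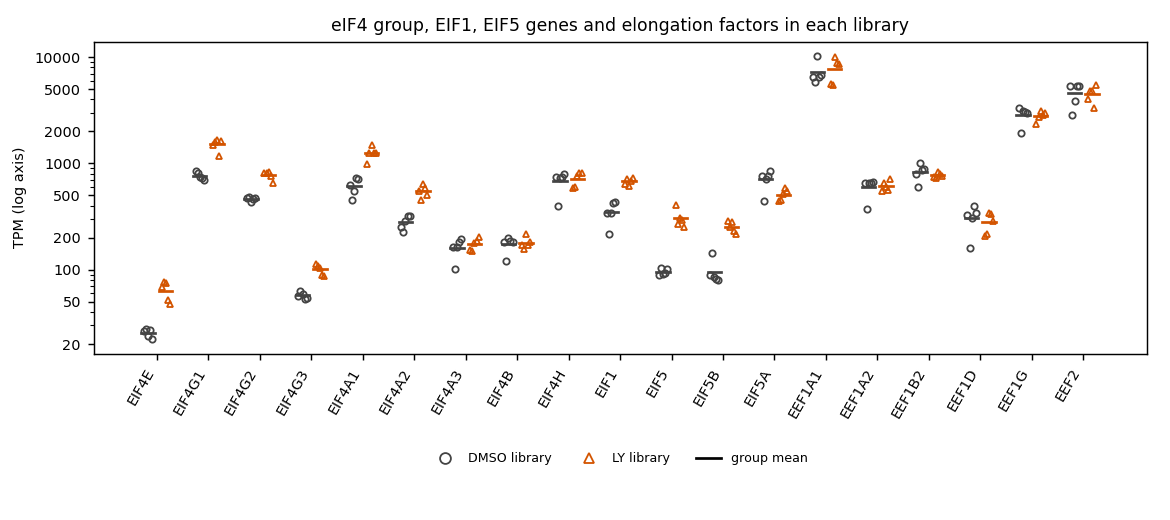
TPM on a log axis for the EIF4 genes, EIF1, the EIF5 genes and the 6 elongation factor subunits in each DMSO (circles) and LY (triangles) library, with a bar at each group mean. EIF4E, EIF4G1, EIF4A1, EIF4A2, EIF1, EIF5 and EIF5B are separated upward in LY, whereas the elongation factors at the right overlap between groups.

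None of the 6 elongation factor subunits passed the test, and their median log2 fold change was -0.0053. Of all tested genes 64.6% passed. EEF1A1 (ENSG00000156508, chromosome 6, 73515750 to 73523797), which delivers aminoacyl-tRNA and was the most abundant member, measured 5549, 5424, 10027, 8773 and 8709 TPM in LY-1 to LY-5 and 6520.2, 5840.3, 10306, 6567 and 6849.9 TPM in NC-1 to NC-5. LY-1 and LY-2 were lower than the other LY libraries and NC-3 higher than the other controls, so the spread within each group exceeded the difference (log2 fold change 0.077 ± 0.22, adjusted p = 0.777, 95% interval -0.41 to 0.56). EEF2 (ENSG00000167658, chromosome 19, 3976056 to 3985469), the translocase, had 4009.9, 4838, 4784, 3317 and 5496 TPM in LY-1 to LY-5 and 5326, 2873, 3829.8, 5414 and 5364 TPM in NC-1 to NC-5. NC-2 and LY-4 were the low libraries of their groups (log2 fold change -0.0017 ± 0.21, adjusted p = 0.995, 95% interval -0.46 to 0.46). As fold changes these intervals run from 0.73 to 1.37 for EEF2 and from 0.75 to 1.48 for EEF1A1. They hold for TPM as deposited and do not cover the choice of scaling. Quantile normalization put the log2 fold change of EEF1A1 at 0.58, beyond its interval but without a call. Upper-quartile scaling put EEF2 at -0.25 and EEF1A1 at -0.17.

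EEF1A2, the second gene of eEF1A, usually restricted to muscle and neurons, measured 617 ± 68.6 TPM in LY and 604 ± 129 TPM in DMSO (log2 fold change 0.056 ± 0.17, adjusted p = 0.782). Of the exchange factor subunits, EEF1B2 was at 775 ± 38.8 TPM in LY and 834 ± 152 TPM in DMSO (-0.087 ± 0.13, 95% interval -0.38 to 0.21), EEF1G at 2819.6 ± 291 TPM in LY and 2874 ± 543 TPM in DMSO (-0.0090 ± 0.16) and EEF1D at 279 ± 65.6 TPM in LY and 309 ± 90.2 TPM in DMSO (-0.12 ± 0.24). EEF1B2 was called lower with median-ratio (-0.23), quantile and upper-quartile scaling and without mitochondrial genes. After median-ratio scaling of the libraries other than NC-2, EEF1B2, EEF1G and EEF1D were called lower and the other 3 subunits did not pass. In none of the scalings tried was any of the 6 called higher. EEF1E1, a scaffold protein of the aminoacyl-tRNA synthetase complex, rose slightly (log2 fold change 0.34 ± 0.14, adjusted p = 0.0462), a call that every other scaling tried ended, as did leaving out LY-2, LY-3, LY-4, LY-5, NC-1, NC-2 or NC-3 in turn (adjusted p = 0.0544 to 0.110).

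Enzymes that modify the elongation factors went both ways. EEF2K, the kinase that inhibits eEF2, had 8.55, 9.68, 8.60, 8.59 and 9.77 TPM in LY-1 to LY-5 and 17.2, 11.8, 13.9, 13.9 and 14.1 TPM in NC-1 to NC-5. Every LY value was below every control (log2 fold change -0.59 ± 0.11, adjusted p = 0.000418). EEF2KMT, a methyltransferase of eEF2, held 42.2, 53.2, 27.5, 48.6 and 37.3 TPM in LY-1 to LY-5 and 16.1, 18.03, 18.8, 19.1 and 16.5 TPM in NC-1 to NC-5. The groups did not overlap (log2 fold change 1.16 ± 0.16, adjusted p = 4.29e-05). EEF1AKMT3, a lysine methyltransferase of eEF1A, was low throughout, with 3.07, 5.01, 3.14, 6.52 and 4.81 TPM in LY-1 to LY-5 and 2.18, 1.40, 3.02, 2.44 and 3.12 TPM in NC-1 to NC-5. It rose with an overlap of LY and DMSO values (log2 fold change 0.67 ± 0.20, adjusted p = 0.0106). EEF1AKMT1, of the same kind, measured 16.6, 18.8, 24.1, 21.3 and 19.3 TPM in LY-1 to LY-5 and 13.6, 12.9, 14.7, 14.7 and 14.5 TPM in NC-1 to NC-5. All LY libraries were above the controls (log2 fold change 0.47 ± 0.11, adjusted p = 0.00208). EEF1AKMT2 did not pass as deposited (-0.29 ± 0.16) and was called lower under all 5 other scalings (-0.43 with median-ratio scaling), without NC-2 (-0.40) and without LY-3 (-0.39).

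Paralogs were compared by their log2 ratio within a library, which hardly depends on the scaling between libraries (on log2 of TPM + 1, 8 pairs, mean ± SD, n = 5 per group, p-values adjusted over the 8). The ratio of EIF4E to its repressive paralog EIF4E2 was -0.50 ± 0.32 in LY and -1.61 ± 0.38 in DMSO (difference 1.11, two-sided exact permutation p = 0.0079, adjusted p = 0.0317). That of the initiation helicase EIF4A1 to the exon junction helicase EIF4A3 was 2.83 ± 0.21 in LY and 1.94 ± 0.15 in DMSO (difference 0.89, two-sided exact permutation p = 0.0079, adjusted p = 0.0317). For both pairs the ratios did not overlap between groups, and the p is the smallest that 5 libraries against 5 allow. EIF5A to EIF5A2 shifted by -0.77 (exact permutation adjusted p = 0.0635), with NC-2 the low control. EIF4A1 to EIF4A2 shifted by 0.056 (exact permutation adjusted p = 0.807), EIF1 to EIF1B by 0.098 (exact permutation adjusted p = 0.807), and EEF1A1 to EEF1A2 by 0.021 (exact permutation adjusted p = 0.889). The scaffold ratios EIF4G1 to EIF4G2 (0.24, exact permutation adjusted p = 0.143) and EIF4G1 to EIF4G3 (0.17, exact permutation adjusted p = 0.203) did not pass either. Leaving out 1 library ended both calls in 8 of 10 cases (exact permutation adjusted p = 0.0635). With 9 libraries the smallest possible p is larger, and 2 pairs at that p cannot pass unless another pair reaches it too. The lost calls therefore do not measure how firm the 2 differences are. These stayed at 0.83 to 0.94 for EIF4A1 to EIF4A3 and 1.03 to 1.27 for EIF4E to EIF4E2. EIF4G1 to EIF4G2 passed without LY-4 (0.32) and EIF5A to EIF5A2 without NC-2 (-0.97), both at exact permutation adjusted p = 0.0423.

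**Figure D4:**
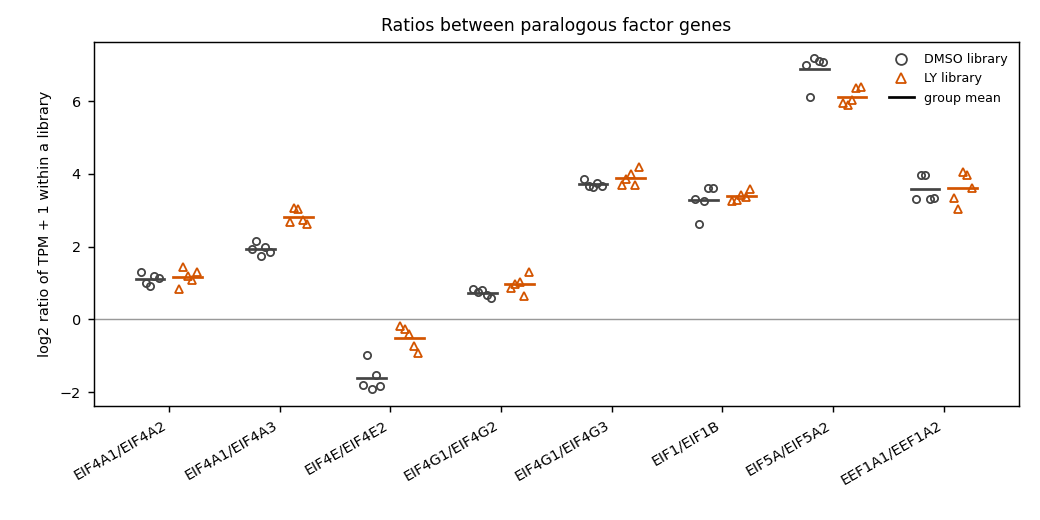
Log2 ratio of TPM + 1 between 2 paralogous factor genes within each DMSO (circles) and LY (triangles) library, with a bar at each group mean, for 8 pairs. EIF4E/EIF4E2 and EIF4A1/EIF4A3 are separated upward in LY, and EIF5A/EIF5A2 is lower in LY apart from 1 control.

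Other genes of the pathway were taken from fixed lists. The counts of every list stand beside 39.8% of all tested genes that rose, 24.9% that fell and 64.6% that changed in either direction. The lists are short and were not tested as lists, so their counts describe single genes only. Of the 8 genes that set eIF2α phosphorylation, 4 rose, 2 fell and 2 did not pass. PPP1R15A, the inducible phosphatase subunit, had the largest rise (log2 fold change 2.64 ± 0.32) followed by PPP1R15B, the constitutive subunit (0.80 ± 0.11). IMPACT, an inhibitor of the kinase GCN2, went from 24.1 to 39.4 TPM (0.68 ± 0.097). The kinase genes EIF2AK4 (-0.45 ± 0.079, GCN2) and EIF2AK1 (-0.42 ± 0.074, HRI) fell, and EIF2AK3 (0.53 ± 0.095, PERK) rose. Every LY value of PPP1R15A was above every control (385 to 528 TPM against 40.4 to 144 TPM). Of 10 genes that control eIF4E and eIF4A, 2 rose, 5 fell and 3 did not pass, and 6 or 7 were called lower under the 5 other scalings. MKNK2, a kinase of eIF4E, fell from 126 to 37.5 TPM (-1.72 ± 0.13). Of the 3 genes of eIF4E-binding proteins, EIF4EBP1, the most abundant, fell from 216 to 121 TPM (-0.82 ± 0.16), EIF4EBP2 fell from 34.2 to 25.7 TPM (-0.40 ± 0.10) and EIF4EBP3 rose from 17.9 to 33.01 TPM (0.84 ± 0.22). PDCD4, an inhibitor of eIF4A, fell (-0.71 ± 0.15), and LARP1, the binder of TOP mRNAs, rose (0.68 ± 0.083).

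Of 9 poly(A)-binding proteins and scanning helpers 6 rose and 3 did not pass, against 39.8% of all tested genes that rose. The count that rose was 3 with median-ratio scaling, 2 with quantile or upper-quartile scaling, and 3 without mitochondrial genes, where PABPC1, PABPC4 and PAIP1 lost their calls. With median-ratio scaling of the libraries other than NC-2 the count was 6. The rises were led by MCTS1 (0.61 ± 0.12), a partner of DENR in reinitiation, and ABCF1 (0.57 ± 0.11), which binds eIF2. Of the 4 termination and recycling genes all rose as deposited and 3 kept their call in every alternative run. The release factor gene ETF1 (0.61 ± 0.23, adjusted p = 0.0331) lost it with median-ratio (adjusted p = 0.144), quantile and upper-quartile scaling, without mitochondrial genes, without a filter, and on leaving out LY-1, LY-4, NC-1, NC-3, NC-4 or NC-5 (limma adjusted p = 0.0537 to 0.0771). GSPT1, the release factor eRF3a, went from 179.5 to 365 TPM (1.02 ± 0.086), and ABCE1, which splits the ribosome, from 62.1 to 126 TPM (1.02 ± 0.10). Of the 7 genes that make diphthamide, the modified histidine of eEF2, 5 rose, 1 fell and 1 did not pass. DNAJC24 was not called under any of the 5 other scalings, nor DPH1 with quantile or upper-quartile scaling, which leaves 3 or 4 that rose. DPH2 went from 32.04 to 109 TPM (1.77 ± 0.19), and DPH5 rose (0.82 ± 0.11). DPH6 fell (-0.71 ± 0.10). DOHH, which completes hypusine on eIF5A, rose from 23.2 to 61.1 TPM (1.38 ± 0.24), whereas DHPS, which begins it, did not pass as deposited (-0.24 ± 0.17) and was called lower under all 5 other scalings (-0.39 to -0.48).

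For all tested genes together the median was 0.17 as deposited, 0.034 with median-ratio scaling, 0.050 after quantile normalization and -0.058 under upper-quartile scaling. Under median-ratio scaling 34 members were higher and 5 lower, against 34.1% and 32.2% of all tested genes. Quantile normalization gave 33 and 8 (34.8% and 31.7% of all tested genes), upper-quartile scaling 33 and 7 (29.6% and 36.3%), and removal of mitochondrial genes 34 and 6 (32.9% and 33.1%). Median-ratio scaling of the 9 libraries other than NC-2 gave 37 higher and 8 lower (36.9% and 33.2%). Over these 5 settings 32 of the 38 members called higher as deposited kept that call in all 5, as did the 3 called lower (EIF2S3, EIF5A and EEF2K). Those that lost it in at least 1 setting were EIF2B1, EIF3G, EIF4ENIF1, EIF5A2, EIF1AX and EEF1E1. The median log2 fold change of the members less that of all tested genes was 0.43 as deposited and 0.34 to 0.42 over the 5 settings.

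**Figure D5:**
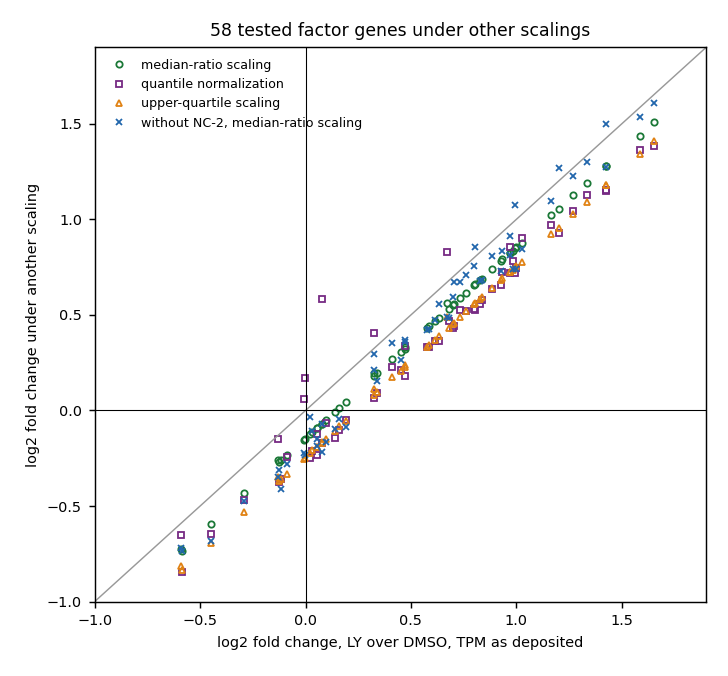
Log2 fold change of LY over DMSO as deposited (x axis) against the same under 4 other scalings (y axis, one symbol per scaling) for the 58 tested factor genes, with the diagonal as a grey line. Most points lie below the diagonal, EIF5 and EIF3A stay at the upper end, most members near 0 cross to negative values, and quantile normalization puts EEF1A1 at 0.58 without a call.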

How the data were processed

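RNA of PANC-1 cells was sequenced in 10 libraries, 5 per group. The authors deposited 1 table of TPM for 20263 genes, 1 column per library. Not given in the sources used here were the aligner, the counter, the annotation and any use of strand, and TPM keeps no depth. The submitters' processing notes list GRCm38, mm10 and hg38 with no role for any of them, although all gene IDs are human. No sample title holds the name NC that control columns carry, so these stand for the DMSO group without a link to single samples. The series' design text gives 4 samples a group and the labels 5, and all 10 were used. Positions came from GENCODE release 29 (hg38) and promoter windows from RefSeq (GRCh38.p14).

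In R 4.3.3, limma 3.58.1 fitted a model of group alone, with a mean-variance trend, to log2(TPM + 1) of genes at 1 TPM or more in at least 5 libraries, with Benjamini-Hochberg adjustment over all of them. The fit was run on simulated data with independent noise for each gene. Those data held no shift shared by the genes of a library, such as that of NC-2, so the run does not cover it. Paralog ratios were compared by two-sided exact permutation tests (scipy 1.17.1). By rule, values of all libraries are given in each complex for the most abundant member, the 2 largest changes and the largest change the opposite way, and for 8 genes fixed by name, and 2 genes with the largest change are named per companion list; other companion genes were chosen after their values were seen. The members and lists were chosen with earlier results of these data known. Alternatives were pseudocounts (0.5 and 0.1), filters (none, 5 TPM), 3 scalings (median-ratio, quantile, upper-quartile), removal of mitochondrial genes, limma untrended or robust, each library left out, and NC-2 left out under median-ratio scaling.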

Additional observations from a re-analysis of the deposited data

Results flagged for a closer look

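A single library stood apart from the other 4 of its group, by Dixon's ratio above 0.71 on log2(TPM + 1), in 21 of 116 checks (58 members in 2 groups). Chance gives about 1 in 20 for a single check. All members were read in the same 10 libraries, so the checks are not independent. Of the 21, 17 concerned the control NC-2, which also had the highest mitochondrial share of TPM (37.5%), and 15 of these were low values. Among EEF1, EIF2 and EIF2B genes, NC-2 held low values of EEF1G 1929 TPM (others 2953 to 3295), EEF1A2 374 TPM (others 653 to 672), EIF2S3 247 TPM (others 309 to 326) and EIF2B5 53.3 TPM (others 77.7 to 84.3). For EIF3 genes they were EIF3I 286 TPM (others 407 to 460.3), EIF3G 279.5 TPM (others 388 to 423), EIF3B 286 TPM (others 368 to 397), EIF3C 259.7 TPM (others 338 to 356), EIF3K 213 TPM (others 413 to 446) and EIF3CL 246 TPM (others 296 to 315). The remaining low values of NC-2 were EIF4H 398 TPM (others 729.8 to 790.0), EIF4B 122 TPM (others 183 to 198), EIF4A3 101 TPM (others 162 to 197), EIF5A 444 TPM (others 719 to 852) and EIF6 115 TPM (others 205 to 238). NC-2 was high for EIF2A 86.1 TPM (others 53.03 to 57.2) and EIF5B 142 TPM (others 80.8 to 88.5), against the direction of the other 15.

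EEF1A1 was high in NC-3 at 10306 TPM, where the other 4 libraries of the group held 5840.3 to 6849.9 TPM. EIF3H was high in NC-5 at 126 TPM, where the other 4 libraries of the group held 65.96 to 76.02 TPM. EIF4ENIF1 was low in NC-5 at 16.7 TPM, where the other 4 libraries of the group held 18.8 to 19.5 TPM. EEFSEC was high in LY-4 at 41.2 TPM, where the other 4 libraries of the group held 38.5 to 39.00 TPM.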

How the results depend on the processing

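Counts of members that rose (38) and changed (41), and of all genes that changed, were within 1.5 times of the value as deposited under every alternative run. The count that fell (3) became 5 with median-ratio scaling, 8 with quantile normalization, 7 with upper-quartile scaling, 6 without mitochondrial genes, and 8 after median-ratio scaling of the libraries other than NC-2. With 1 library left out 36 to 38 members rose and 2 to 4 fell. Pseudocounts, limma without trend and robust moderation changed no member's call, and without a filter EIF5A and EEF1E1 lost theirs. No paired analysis was possible because the control columns carry numbers that tie to no sample title. TPM keeps no depth, so the counting error of low members is unknown.

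The sign of the log2 fold change turned in members that did not pass as deposited, of which EIF4B (quantile) and EEFSEC (quantile and upper-quartile) passed after the turn. With median-ratio scaling it was -0.070 for EEF1A1, -0.091 for EEF1A2, -0.12 for EIF3L, -0.068 for EIF3F, -0.051 for EIF4H, -0.094 for EIF4B, -0.0066 for EIF4A3 and -0.11 for EEFSEC. With upper-quartile scaling it was -0.17 for EEF1A1, -0.19 for EEF1A2, -0.054 for EIF3K, -0.22 for EIF3L, -0.17 for EIF3F, -0.15 for EIF4H, -0.19 for EIF4B, -0.11 for EIF4A3, -0.083 for EIF4E2 and -0.21 for EEFSEC. Without mitochondrial genes it was -0.081 for EEF1A1, -0.10 for EEF1A2, -0.13 for EIF3L, -0.079 for EIF3F, -0.062 for EIF4H, -0.10 for EIF4B, -0.017 for EIF4A3 and -0.12 for EEFSEC. After median-ratio scaling of the libraries other than NC-2 it was -0.070 for EEF1A1, -0.19 for EEF1A2, -0.086 for EIF3K, -0.036 for EIF3L, -0.22 for EIF3F, -0.17 for EIF4H, -0.15 for EIF4B, -0.097 for EIF4A3, -0.042 for EIF4E2 and -0.11 for EEFSEC. With quantile normalization it was 0.062 for EEF1G, -0.12 for EEF1A2, 0.17 for EEF2, -0.050 for EIF3K, -0.25 for EIF3L, -0.17 for EIF3F, -0.068 for EIF4H, -0.23 for EIF4B, -0.15 for EIF4A3, -0.10 for EIF4E2 and -0.21 for EEFSEC. With 1 library left out it ranged from -0.030 to 0.21 for EEF1A1, from -0.15 to 0.052 for EEF1G, from -0.11 to 0.10 for EEF1A2, from -0.16 to 0.10 for EEF2, from -0.0082 to 0.26 for EIF3K, from -0.063 to 0.11 for EIF3L, from -0.26 to 0.54 for EIF3F, from -0.087 to 0.16 for EIF4H, from -0.072 to 0.10 for EIF4B, from -0.019 to 0.22 for EIF4A3 and from -0.034 to 0.069 for EEFSEC. The cause was not tested.

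With 1 library left out the differences in paralog log2 ratio ranged from -0.013 to 0.14 for EIF4A1/EIF4A2, from 0.83 to 0.94 for EIF4A1/EIF4A3, from 1.03 to 1.27 for EIF4E/EIF4E2, from 0.15 to 0.32 for EIF4G1/EIF4G2, from -0.070 to 0.18 for EIF1/EIF1B, from -0.97 to -0.70 for EIF5A/EIF5A2 and from -0.093 to 0.16 for EEF1A1/EEF1A2. Which omissions changed a call is given with the ratios. Pseudocounts of 0.5 and 0.1 changed no call of a pair.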
